A study of Mus musculus with 48 samples.

Results

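Igkv9-129, Igkv9-124 and Igkv9-123 are closely related Vκ gene segments at the distal end of the mouse Igκ locus, and they were followed through 48 libraries of V-J junctions. Igkv9-129 lies in the deletional (DEL) orientation with respect to Jκ, whereas Igkv9-124 and Igkv9-123 lie in the inversional (INV) orientation. The members were junctions on chromosome 6 within 200 bp of the break position of each gene, and the genes were chosen by their usage in WT and Ku70-/- cells given DMSO, together with their position and orientation. They are 3 of 138 Vκ break sites (63 DEL, 75 INV), and they held 66205 of the 7265223 junctions that fell between 67.50 and 70.66 Mb of chromosome 6, the Vκ window.

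The libraries were made by HTGTS-JoinT-seq, which amplifies outward from a bait break at Jκ1 and maps the prey end to which it was joined. One bait read from the Jκ1 coding end (CE bait) and the other from the Jκ1 signal end (SE bait). The cells were vAbl cells, which are mouse pro-B cells transformed with the Abelson kinase, either WT (clone B) or Ku70-/- (clone B1). Each genotype is a single clone, so a difference between genotypes cannot be told apart from other differences between the clones. Cells were left cycling, or were arrested with the Abl kinase inhibitor STI-571 at 3 µM for 96 hours together with the vehicle DMSO, with 5 µM L67 or with 25 µM L82-G17. With 2 genotypes, 4 treatments and 2 baits there were 16 groups of 3 libraries. The junction lists carry no expression values, so the labelled cell type could not be checked against its markers.

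In V-J recombination, RAG1/2 cuts between a gene segment and its recombination signal sequence and leaves a hairpin-sealed coding end and a blunt signal end on each side. Classical nonhomologous end joining, which needs the Ku70/Ku80 heterodimer, opens the hairpin, joins the coding ends with some loss or gain of bases and joins the signal ends with little change. Without Ku70, ends are joined by alternative end joining (A-EJ). L67 inhibits DNA ligases I and III, which can seal breaks in A-EJ, and L82-G17 inhibits DNA ligase I. A coding end can also be joined to a signal end, which gives a hybrid joint. For a DEL gene the coding joint stays on the chromosome and the signal joint leaves on a circle, and a hybrid joint inverts the segment between them. For an INV gene the coding and signal joints both stay on an inverted segment, and a hybrid joint deletes it.

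The sequences around the 3 breaks are shown because the genes carry nearly the same signal in opposite orientations. Each is given 5′ to 3′ on the strand of the gene from mm9, with 45 coding bases followed by 28 bases of the signal, the heptamer and the nonamer in capitals and the break directly before the heptamer. Igkv9-129 spans chr6:67790216-67790288 (plus strand), Igkv9-124 chr6:67892040-67892112 (minus strand) and Igkv9-123 chr6:67904194-67904266 (minus strand). Igkv9-120, the other annotated Igkv9 gene with a break site, spans chr6:68000406-68000478 (plus strand). Jκ1, the bait, spans chr6:70672517-70672593 (plus strand) and is shown from nonamer to coding end.
Igkv9-129: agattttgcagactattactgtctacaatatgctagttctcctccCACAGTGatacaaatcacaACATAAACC
Igkv9-124: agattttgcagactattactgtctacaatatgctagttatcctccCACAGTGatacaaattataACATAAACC
Igkv9-123: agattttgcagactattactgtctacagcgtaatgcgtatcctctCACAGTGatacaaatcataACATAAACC
Igkv9-120: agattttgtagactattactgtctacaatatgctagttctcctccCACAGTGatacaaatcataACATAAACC
Jκ1: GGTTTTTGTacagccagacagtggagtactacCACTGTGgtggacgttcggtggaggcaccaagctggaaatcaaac

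The heptamer CACAGTG and the nonamer ACATAAACC were the same in all 3 genes, with a 12-base spacer against 23 bases in Jκ1. Among the 138 sites, read on the strand of each gene, 111 (80.4%) had this heptamer, 33 (23.9%) this nonamer and 25 (18.1%) both. Sites had been kept only where the signal began with CAC, so the heptamer share is among such sites. Counted from 1 at the first signal base, Igkv9-124 differed from Igkv9-129 by the spacer substitutions C16T and C18T, and Igkv9-123 differed from Igkv9-129 by C18T and from Igkv9-124 by T16C. The signal of Igkv9-123 was identical to that of the DEL gene Igkv9-120. In the 45 coding bases, Igkv9-129 and Igkv9-124 differed at 1 position, Igkv9-129 and Igkv9-123 at 10, and Igkv9-124 and Igkv9-123 at 9.

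In the mm9 annotation, Igkv9-129 (ENSMUSG00000076507.2) is at chr6:67789787-67790260 with its V exon at chr6:67789966-67790260, and its break is at the end of that exon. Igkv9-124 (ENSMUSG00000076511.2) is at chr6:67892068-67892354 and Igkv9-123 (ENSMUSG00000076512.1) is at chr6:67904222-67904684 with its V exon at chr6:67904222-67904519. The breaks lie 2.88, 2.78 and 2.77 Mb from Jκ1 and are the 8th, 13th and 14th sites of 138 counted from the distal end. Of the other sites within 200 kb of these genes, all 15 are DEL, so Igkv9-124 and Igkv9-123 form an inverted pair among DEL genes. Their V exons shared 93.03% of bases (Igkv9-129 with Igkv9-124), 85.8% (Igkv9-129 with Igkv9-123) and 87.1% (Igkv9-124 with Igkv9-123). Because of this likeness, the 60 to 150 prey bases of each read were compared with the sequence at each of the 138 sites, and 99.5% of the reads at Igkv9-129, 99.3% at Igkv9-124 and 99.8% at Igkv9-123 were closest to the gene to which they were assigned.

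Arrested libraries held 87985 to 362359 window junctions and cycling libraries 2921 to 29432. Ku70-/- DMSO replicate 1 of each bait is a library that the study's supplementary tables do not list. It held 927 (CE bait) and 965 (SE bait) distinct window junctions, against 11211 to 17726 and 5942 to 14897 in the other 8 arrested Ku70-/- libraries. At the members it held a few joints in many copies. With the CE bait its 1085 junctions at Igkv9-129 were 4 distinct junctions, and with the SE bait its 2249 junctions at Igkv9-124 were 11 distinct junctions. The main values that rest on these libraries are therefore given with and without them.

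In arrested WT cells the DEL gene Igkv9-129 was used most, Igkv9-124 next and Igkv9-123 least, with each bait. Usage is given as junctions per 1000 window junctions, and values of the 3 libraries follow the order of replicates 1 to 3. In WT cells given DMSO with the CE bait, usage was 4.19, 4.02 and 3.65 for Igkv9-129. It was 2.07, 1.80 and 1.90 for Igkv9-124 and 0.938, 0.687 and 0.760 for Igkv9-123, so that the libraries of the 3 genes did not overlap. Libraries of the SE bait had Igkv9-129 at 6.14, 5.78 and 7.29, Igkv9-124 at 3.08, 3.62 and 3.18 and Igkv9-123 at 0.687, 0.445 and 0.451, again without overlap. None of these was a heavily used gene, as the mean usage of Igkv9-129 ranked 70 of 138 (CE bait) and 52 (SE bait), that of Igkv9-124 ranked 88 and 71, and that of Igkv9-123 ranked 99 and 102. Igkv9-129 exceeded Igkv9-124 in all 9 arrested WT libraries of each bait, by a mean of 1.56 (CE) and 1.81 (SE) on the log2 scale. In distinct junctions the SE bait difference turned to -0.44. Igkv9-124 exceeded Igkv9-123 in 9 of 9 libraries by 1.19 (CE) and in 8 of 9 by 1.94 (SE). Since usage in part of these libraries chose the genes, no test is given.

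**Figure D1:**
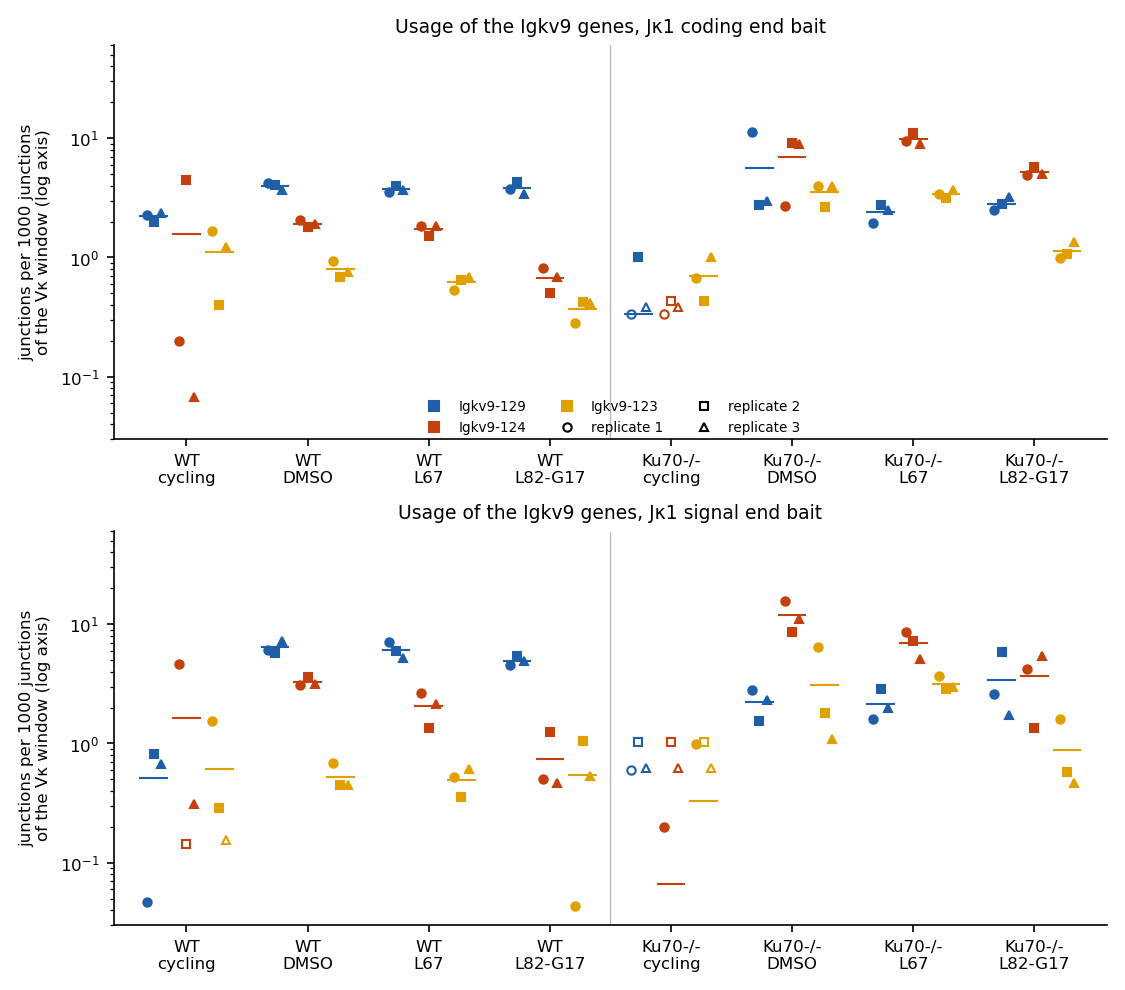
Usage of the 3 genes (junctions per 1000 window junctions, log axis) in each library of the 8 genotype and treatment groups, with the CE bait and the SE bait in separate panels. Marker shapes stand for replicates, bars for group means, and hollow marks for libraries with 0 junctions, drawn at the limit of 3 counts. Igkv9-129 lies above both INV genes in arrested WT cells, whereas Igkv9-124 lies highest in most arrested Ku70-/- libraries.

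In arrested Ku70-/- cells this order changed, and the INV gene Igkv9-124 was the most used. Seen from the CE bait with DMSO, Igkv9-124 was at 2.72, 9.12 and 9.02, Igkv9-123 at 3.95, 2.67 and 3.97 and Igkv9-129 at 11.3, 2.76 and 2.99 per 1000. The first value of each series is the unlisted library, in which 1079 of the 1085 junctions of Igkv9-129 were a single hybrid joint. Seen from the SE bait, Igkv9-124 was at 15.8, 8.67 and 11.1, Igkv9-123 at 6.42, 1.80 and 1.09 and Igkv9-129 at 2.82, 1.56 and 2.32. In both listed libraries of each bait Igkv9-124 thus stood above the other genes. The ratio of the Ku70-/- to the WT mean was 3.61 for Igkv9-124, 4.44 for Igkv9-123 and 1.44 for Igkv9-129 with the CE bait, and 4.72, 4.18 and 0.727 without the unlisted library. For the SE bait it was 3.60, 5.88 and 0.349, and 3.01, 2.73 and 0.303 without it. In distinct junctions the SE bait ratio of Igkv9-124 turned to a log2 value of -0.45. These ratios are the values by which the genes were chosen. Without the unlisted libraries, Igkv9-124 ranked 2 and Igkv9-123 ranked 3 in this ratio among 120 sites with the CE bait, and 13 and 17 with the SE bait, whereas Igkv9-129 ranked 88 and 111. Over the 9 arrested Ku70-/- libraries Igkv9-129 was below Igkv9-124 in 8 with each bait, by a mean log2 difference of -1.11 (CE; -1.51 without the unlisted library) and -1.39 (SE; -1.25 without it).

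The same comparison in cells given L67 or L82-G17 uses other libraries and was tested with limma over all sites with enough junctions. L67-treated WT cells had 1.85, 1.50 and 1.84 junctions per 1000 at Igkv9-124 with the CE bait, and L67-treated Ku70-/- cells had 9.43, 11.1 and 8.97. With L82-G17 the values were 0.819, 0.503 and 0.680 in WT cells and 4.92, 5.73 and 5.00 in Ku70-/- cells, so the genotypes did not overlap under either compound. At Igkv9-123 they did not overlap either, with 0.530, 0.652 and 0.688 against 3.41, 3.16 and 3.68 with L67, and 0.284, 0.422 and 0.413 against 0.999, 1.06 and 1.34 with L82-G17. Such separation of libraries was not counted over all sites, so it is not given as a trait of these genes. Averaged over both compounds, Igkv9-124 rose in Ku70-/- cells by 2.74 on the log2 scale (SE 0.60, limma adjusted p = 0.00256) and Igkv9-123 by 2.03 (SE 0.27, adjusted p = 9.79e-06). Of 111 sites tested, 17 were called (15.3%; 9 higher and 8 lower in Ku70-/-), and Igkv9-124 and Igkv9-123 had the 1st and 3rd largest difference, with the median of all sites at -0.21.

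Igkv9-129 was not called with the CE bait, at a log2 difference of -0.54 (SE 0.44, limma adjusted p = 0.585), though it was when only the groups compared entered the fit (adjusted p = 0.00144, with 71 sites called) and in distinct junctions (0.0319). Its usage was 3.53, 3.99 and 3.70 with L67 and 3.76, 4.33 and 3.38 with L82-G17 in WT cells, and 1.95, 2.74 and 2.52 and then 2.48, 2.78 and 3.19 in Ku70-/- cells. Every one of these Ku70-/- values lay below every WT value. How many other sites separate the libraries of the genotypes, here or in the comparisons above, was not counted.

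The differences had the same signs with the SE bait, but no member passed the threshold in this fit. The log2 difference was 2.00 for Igkv9-124 (SE 0.72, limma adjusted p = 0.0635), 2.01 for Igkv9-123 (SE 0.78, adjusted p = 0.0776) and -1.12 for Igkv9-129 (SE 0.44, adjusted p = 0.0776), while 19 of 110 sites (17.3%) were called. When only the groups compared entered the fit, each member was called, and so were many more sites. Usage at Igkv9-124 was 2.66, 1.36 and 2.16 in WT against 8.59, 7.22 and 5.10 in Ku70-/- cells with L67. With L82-G17 it was 0.499, 1.24 and 0.468 against 4.17, 1.35 and 5.44. At Igkv9-123 the L67 libraries were at 0.525, 0.354 and 0.607 against 3.70, 2.84 and 2.99. There the L82-G17 libraries overlapped, at 0.0434, 1.04 and 0.532 in WT and 1.60, 0.580 and 0.470 in Ku70-/- cells, and the first of these WT values rests on 6 junctions. When each distinct junction was counted once, the fitted SE bait difference was -0.32 for Igkv9-124, with a mean distinct usage of 5.38 in Ku70-/- and 6.23 in WT cells. It was -0.31 for Igkv9-123, opposite in sign to the means of 1.88 and 1.62. In contrast, with the CE bait it stayed positive and called at 1.38 and 0.61.

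**Figure D2:**
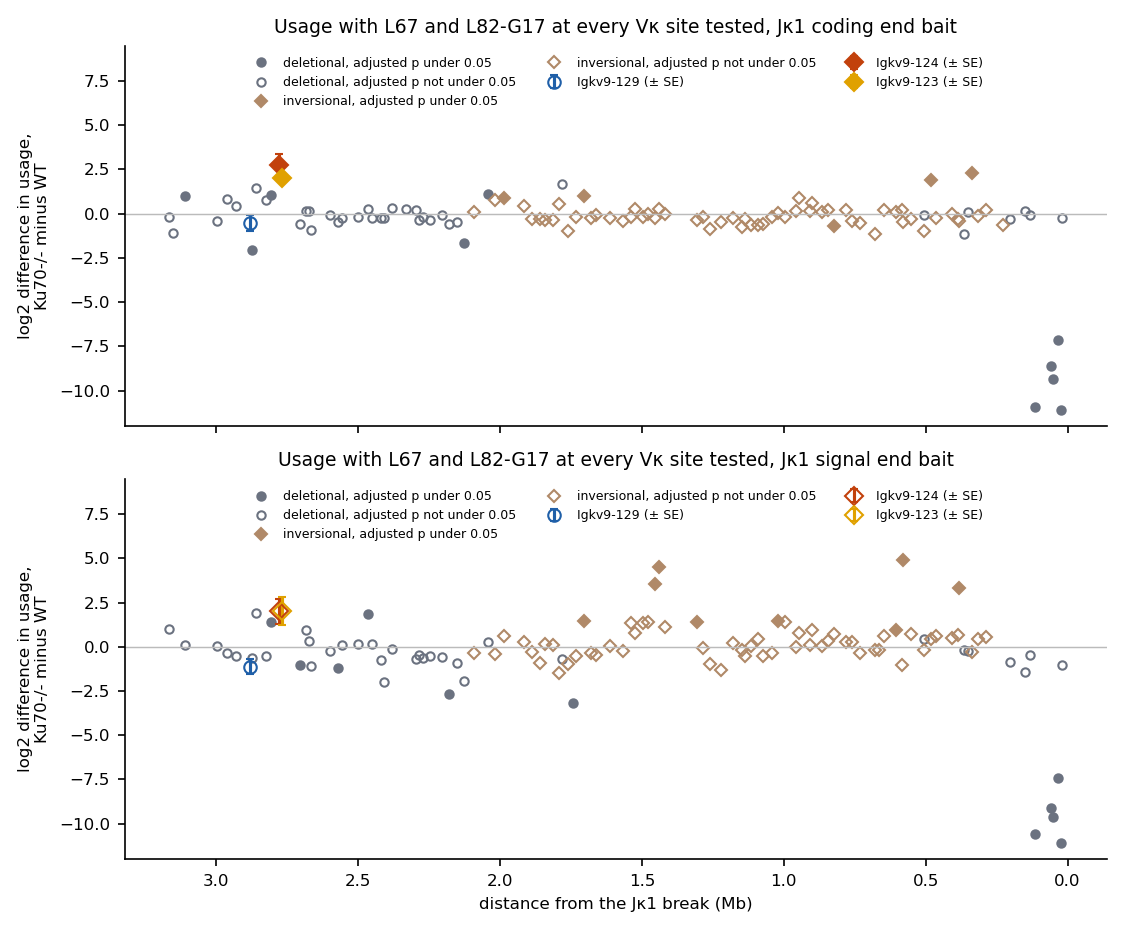
The log2 difference in usage between Ku70-/- and WT cells (mean of L67 and L82-G17) for each tested Vκ site against its distance from Jκ1 in Mb, with circles for DEL sites, diamonds for INV sites, filled marks for limma adjusted p under 0.05 and SE bars on the 3 genes. Igkv9-124 and Igkv9-123 lie at 2.00 to 2.74 with each bait, while Igkv9-129 lies below 0, and the 5 lowest sites are DEL sites next to Jκ1.

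Neighbouring sites were called about as often as sites over the whole locus. Of the 15 other sites within 200 kb, all of them DEL, 13 were tested; with the CE bait 1 was higher and 1 was lower in Ku70-/- cells, beside 15.3% of all sites called (median log2 difference 0.15, range -2.07 to 1.43), and with the SE bait 1 was higher and 2 were lower, beside 17.3% (median -0.33, range -1.18 to 1.93). Igkv9-120, whose signal is identical to that of Igkv9-123 but which is DEL, was at 0.17 with the CE bait and 0.30 with the SE bait and was not called. Rises were not confined to INV genes, as the highest DEL neighbour was at 1.43 with the CE bait and 1.93 with the SE bait. Of the other 62 INV sites tested, 4 were higher and 1 was lower with the CE bait, and 8 were higher and none was lower with the SE bait. The lowest values were those of 5 DEL sites within 0.115 Mb of Jκ1, at -7.14 to -11.1 with the CE bait, and at -7.43 to -11.1 with the SE bait.

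Cycling Ku70-/- cells held few junctions at these genes. Cycling libraries of the CE bait held 0, 0 and 0 junctions at Igkv9-124, 0, 7 and 0 at Igkv9-129 and 6, 3 and 8 at Igkv9-123, of which each library showed at most 1 distinct junction per gene. Per 1000 window junctions Igkv9-123 was at 0.667, 0.430 and 1.02. These values overlapped those of 1.68, 0.403 and 1.22 in cycling WT cells and lay below each of its Ku70-/- values with DMSO given above. Igkv9-124 at 0 of 23838 window junctions gives a limit of 0.126 per 1000 at 3 counts over the group. By read count, its mean of 6.95 ± 3.67 (SD, n = 3) with DMSO was thus at least 55.2-fold higher, or at least 72.1-fold without the unlisted library. This limit and the intervals below take each read as a separate count, while these cycling libraries held only 641 to 849 distinct window junctions. For Igkv9-129 the ratio was 19.4 with a counting interval of 9.39 to 48.1, and 9.80 (4.76 to 24.4) without that library, and for Igkv9-123 it was 4.95 (3.09 to 8.50), and 4.66 (2.91 to 7.995) without it. Because the DMSO usage chose the genes, the fitted differences between DMSO and cycling cells are given as a description, with no test. They were 4.17 for Igkv9-129, 5.59 for Igkv9-124 and 2.12 for Igkv9-123 on the log2 scale, and 3.51, 6.16 and 2.03 without the unlisted library, in a comparison where 47 of 111 sites (42.3%; 58 without that library) were called by limma. In distinct junctions they were 1.14, 2.46 and 0.90 in the same order. Far fewer sites were called when only the groups compared entered the fit.

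Seen from the SE bait, cycling Ku70-/- cells held 0 junctions at Igkv9-129, 1 at Igkv9-124 and 5 at Igkv9-123 of 12754 window junctions, the latter all in replicate 1. By read count, the mean of Igkv9-129 was therefore at least 9.49-fold higher with DMSO (8.24-fold without the unlisted library). This limit and the intervals below take each read as a separate count, while these cycling libraries held only 249 to 530 distinct window junctions. In distinct junctions the fitted log2 differences between DMSO and cycling cells were 0.39 for Igkv9-129, 1.42 for Igkv9-124 and 0.30 for Igkv9-123. Igkv9-124 had a ratio of 151 with a counting interval of 27.2 to 5976, and 126 (22.6 to 4983) without that library, and Igkv9-123 had a ratio of 7.91 (3.39 to 24.4), and 3.68 (1.58 to 11.3) without it. All sites together had 37 of 110 called (33.6%; 38 without that library) here, and fewer when only the groups compared entered the fit.

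Arrested and cycling WT cells are likewise set side by side with no test, since the WT libraries with DMSO also chose the genes. For the CE bait, Igkv9-129 was at 2.28, 1.98 and 2.38 per 1000 in cycling cells, below each of its DMSO values of 4.19, 4.02 and 3.65. Cycling values of Igkv9-124 were 0.198, 4.47 and 0.0680, of which the second, 122 junctions, came from 6 distinct junctions. Igkv9-123 was at 1.68, 0.403 and 1.22 and overlapped its DMSO values. The fitted log2 differences between DMSO and cycling cells were 0.82, 1.99 and -0.32 in this order. That of Igkv9-124 ran from 0.86 without cycling replicate 3 to 3.60 without cycling replicate 2, and the ratio of its DMSO mean to the pooled cycling level was 1.16 (counting interval 0.97 to 1.39). This interval counts reads and leaves out the wide spread between the cycling libraries. By limma 23 of 111 sites (20.7%) were called in this comparison, and more when only the groups compared entered the fit. Seen from the SE bait, the cycling values were 0.0470, 0.819 and 0.671 for Igkv9-129, all below its DMSO values, and 4.61, 0 and 0.310 for Igkv9-124, of which 1 lay above its DMSO values. Igkv9-129 differed by 4.03 on the log2 scale. Its distinct usage of 6.498, 5.67 and 6.76 with DMSO also lay above the cycling values of 3.52, 3.56 and 3.70, which were 1 distinct junction each. The fitted difference in distinct junctions was -0.087, opposite in sign to these values, since the value of 1 junction added before the log is larger in libraries with fewer junctions. The difference of 2.92 for Igkv9-124 ran from 1.34 without cycling replicate 2 to 4.64 without cycling replicate 1, and was 0.66 in distinct junctions. For Igkv9-123 the fitted difference of 0.78 was opposite in sign to the means of 0.528 with DMSO and 0.614 in cycling cells, and the ratio to the pooled cycling level was 0.831 (counting interval 0.608 to 1.17). In all, 49 of 110 sites (44.5%) were called. How many sites separate the cycling from the DMSO libraries was not counted.

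Among cycling cells, Igkv9-129 was lower in Ku70-/- than in WT with the CE bait, by a fitted log2 difference of -3.15 (SE 0.63). No test of the members is given here. Their cycling libraries hold too few junctions for the required mean of 50, which the genes reach through the arrested libraries. The value of 1 junction added before the log also weighs more in the Ku70-/- libraries, with 6976 to 9001 window junctions against 20210 to 29432 in WT. Over all sites limma called 37 of 111 (33.3%) with the CE bait and 24 of 110 (21.8%) with the SE bait. Both counts were smaller when only the groups compared entered the fit. The WT libraries held 46, 54 and 70 junctions of Igkv9-129 and the Ku70-/- libraries 0, 7 and 0, so the groups did not overlap, which was not counted over all sites. Igkv9-124 was at -1.94 (-0.33 without WT cycling replicate 2 and -3.06 without WT cycling replicate 3) and Igkv9-123 at -0.30 with the CE bait. For the SE bait, Igkv9-129 was at -0.69, Igkv9-124 at -0.51 and Igkv9-123 at 0.54, likewise given with no test. The value of Igkv9-123 was opposite in sign to its mean usage, which was 0.330 in Ku70-/- cells, with 0 junctions in 2 libraries, and 0.614 in WT cells.

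Usage with each ligase inhibitor is set beside that with DMSO as a description, with no test of the members, since the DMSO libraries chose the genes. Over all sites limma called 0 (0.0%) in 7 of the 8 comparisons and 1 of 110 (0.909%), no member, in L82-G17-treated Ku70-/- cells with the SE bait. At an unadjusted p under 0.05 the counts of sites were 0 and 8 for L67 in WT and Ku70-/- cells and 2 and 19 for L82-G17 with the CE bait, and 0, 13, 1 and 16 in the same order with the SE bait. When only the groups compared entered the fit, more sites were called in WT cells. This held for L67 with the CE bait and for L82-G17 with both baits, with counts given in the closing section. The mean of Igkv9-124 was lowest with L82-G17 among the arrested groups of each genotype and bait, and so was that of Igkv9-123 except in WT cells with the SE bait. In WT cells Igkv9-124 was at 0.819, 0.503 and 0.680 with L82-G17 against 2.07, 1.80 and 1.90 with DMSO (CE bait), and at 0.499, 1.24 and 0.468 against 3.08, 3.62 and 3.18 (SE bait), without overlap with either bait. At Igkv9-129 in WT cells, the L82-G17 values of 3.76, 4.33 and 3.38 overlapped those with DMSO for the CE bait, whereas for the SE bait 4.56, 5.37 and 4.89 lay below all DMSO values of 6.14, 5.78 and 7.29. Such separation of libraries was not counted over all sites.

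Hybrid joints set Igkv9-124 apart from most other sites in arrested WT cells. With the SE bait, a hybrid joint is the Jκ1 signal end joined to the coding end of the gene. At Igkv9-124 hybrids were 40.6%, 50.5% and 54.5% of its junctions with DMSO, 50.9%, 34.4% and 41.8% with L67 and 24.6%, 17.1% and 76.3% with L82-G17. The junctions at all other sites pooled held 1.06% to 1.85% hybrids in the same 9 libraries, so that every Igkv9-124 value was higher. The mean difference within libraries was 42.0 percentage points (43.4% against 1.43%; higher in 9 of 9 libraries, exact two-sided sign-flip permutation test p = 0.0039, the smallest that 9 libraries can give, adjusted p = 0.0281 over 36 such comparisons, of which 7 were called). Counted as distinct junctions it was 57.5 points (adjusted p = 0.0352 in the same test). Distinct counting takes the direct joint of the full signal ends once per library, which raises hybrid shares by construction. The distinct value is therefore no independent check. By the share over the pooled junctions of the 3 libraries, among sites with enough junctions, Igkv9-124 ranked 2 of 119 sites with DMSO, 1 of 117 with L67 and 2 of 112 with L82-G17, while the median of INV sites with DMSO was 1.25% and that of DEL sites 0.57%. A DEL site was higher with DMSO, at 52.8% against 48.6%, and an INV site with L82-G17, at 66.7% against 31.4%. Igkv9-123 ranked 6, 5 and 27.

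**Figure D3:**
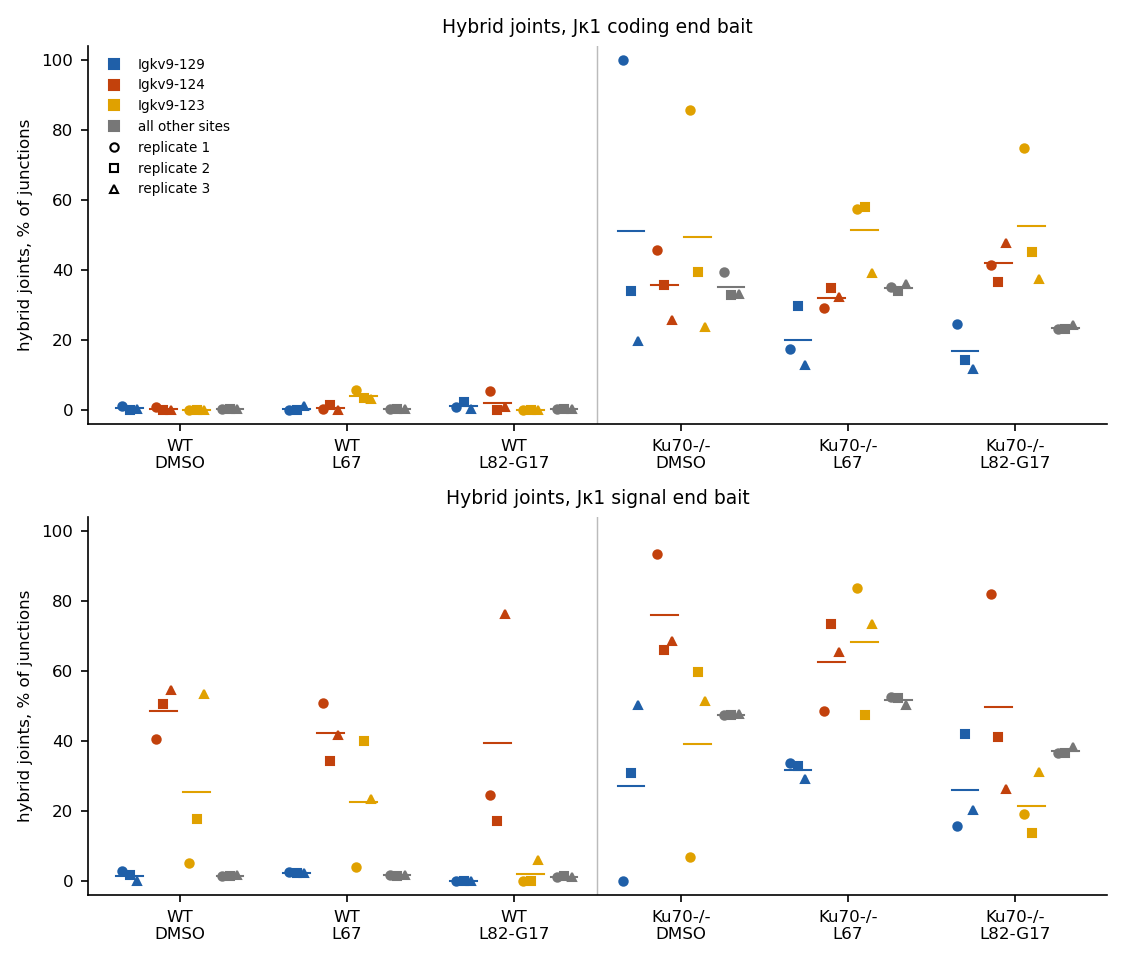
The share of junctions that were hybrid joints (%) at each of the 3 genes and at all other Vκ sites pooled (grey), per library of the 6 arrested groups, with bars for group means and separate panels for the CE and SE baits. With the SE bait, WT cells show 17.1% to 76.3% hybrids at Igkv9-124, while all other sites pooled stay at 1.06% to 1.85%.

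Igkv9-129, whose coding flank differs from that of Igkv9-124 at 1 of 45 bases, had few hybrids in the same libraries. Its hybrid share was 2.95%, 1.63% and 0% with DMSO and 2.64%, 2.23% and 2.31% with L67. With L82-G17 it had 0 of 1905 junctions, which allows a share of up to 0.157% by read count, though 1889 of these reads were the same joint. The difference between Igkv9-129 and Igkv9-124 was -42.1 points (9 of 9 libraries, exact sign-flip permutation test, adjusted p = 0.0208 over the 48 comparisons between members). Of these 48, 12 were usage comparisons, on which the choice of the genes bears, and they lower the adjusted p of the shares. Of the 36 share comparisons 8 were called, and those at an exact p above the smallest depend on these 12. Reads of the Igkv9-124 hybrids were also compared with all break sites, and 98.2% of 2424 were closest to Igkv9-124.

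Igkv9-123 varied widely. Its hybrid share was 5.11%, 17.8% and 53.4% with DMSO, 4.12%, 40.0% and 23.3% with L67 and 0%, 0% and 5.97% with L82-G17, on 6 to 235 junctions a library. Of the 79 hybrids behind the value of 53.4%, 73 were 1 joint whose prey end lay on the signal side of the break. The gene was above all other sites by 15.2 points in 7 of 9 libraries but did not pass (exact sign-flip permutation test, adjusted p = 0.0511). Igkv9-124 exceeded it by 26.8 points (8 of 9 libraries, adjusted p = 0.0402), a call that was lost when any of 8 libraries was left out, with differences of 21.3 to 30.8 points. The smallest exact p is 0.0078 with 8 libraries. Igkv9-129 was below it by 15.3 points (adjusted p = 0.0469), which was lost when any library was left out and was 12.8 points (adjusted p = 0.205) in distinct junctions.

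Seen from the Jκ1 coding end, where a hybrid joins it to the signal end of the gene, WT cells had few hybrids at any member. They were 0% to 2.27% at Igkv9-129, 0% to 5.44% at Igkv9-124, and 5.65%, 3.30% and 3.02% at Igkv9-123 with L67. Igkv9-123 had 0 of 840 junctions with DMSO and 0 of 206 with L82-G17, which allow up to 0.357% and 1.46% by read count. Few hybrids were present at other sites too, and with L67 the pooled share of Igkv9-123 (3.86%) ranked 1 of 119 sites. The medians there were 0.19% for both DEL and INV sites. Igkv9-124 ranked 34 of 118 with DMSO, 30 of 119 with L67 and 5 of 114 (2.44%) with L82-G17. The high share at Igkv9-124 was thus seen from the signal end of Jκ1.

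The leading hybrids of Igkv9-124 with DMSO recurred between libraries. The most common are shown with the bait on the left and in the read direction, with bases shared by bait and prey in capitals. The first, with 3 bases lost from the V coding end and 2 from the Jκ1 signal end and no overlap, had 292 junctions (138, 122 and 32). The second, with an overlap of 1 base, had 256 (114, 60 and 82).
Igkv9-124 hybrid, direct: ggagtactaccactgggataactagcatat
Igkv9-124 hybrid, overlap of 1 base: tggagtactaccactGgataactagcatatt
Both were found in all 3 libraries with DMSO. The leading hybrid with L67 (115 junctions) was in 2 of 3 libraries and that with L82-G17 (37 junctions) in 1. In contrast, 73 of the 148 junctions of Igkv9-123 in WT DMSO replicate 3 were 1 joint, with the prey end 85 bases beyond the break and an insertion of 2 bases, in capitals.
Igkv9-123 joint of WT DMSO replicate 3: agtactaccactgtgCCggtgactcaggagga

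In Ku70-/- cells hybrids were common at all 3 genes. In the limma fit of the CE bait with the inhibitors, the log2 odds of a hybrid rose by 5.95 at Igkv9-129 (limma adjusted p = 0.00246), 6.38 at Igkv9-124 (adjusted p = 9.34e-07) and 5.95 at Igkv9-123 (adjusted p = 3.54e-07), as at 81 of 81 sites tested (100%). In the listed libraries, CE bait hybrids were 33.9% and 19.6% of the Igkv9-129 junctions with DMSO, 17.4%, 29.6% and 12.9% with L67 and 24.4%, 14.2% and 11.6% with L82-G17. For Igkv9-124 they were 35.6% and 25.6%, then 29.1%, 34.8% and 32.2%, then 41.4%, 36.6% and 47.6%. For Igkv9-123 they were 39.3% and 23.6%, then 57.4%, 57.8% and 39.1%, then 74.8%, 45.1% and 37.2%. All other sites pooled were at 23.1% to 39.3% in the 9 arrested libraries, so the members lay on either side of them. Igkv9-123 was above them by 19.9 points without passing (exact sign-flip permutation test, adjusted p = 0.0511; 16.6 points with adjusted p = 0.0938 without the unlisted library).

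The genotype contrast of the SE bait was called at Igkv9-129 (log2 odds 6.47, limma adjusted p = 3.40e-04) but not at Igkv9-124 (1.00, SE 0.89, adjusted p = 0.276), while 69 of 72 sites were called (95.8%). Igkv9-123 was not tested here, as 1 WT library held fewer than 10 junctions. Igkv9-124 hybrids in Ku70-/- cells were 93.2%, 65.9% and 68.6% with DMSO, 48.6%, 73.4% and 65.4% with L67 and 81.8%, 41.2% and 26.3% with L82-G17. These ranges overlapped the WT values of the same gene with L67 and with L82-G17. Igkv9-129 was at 0%, 30.8% and 50.3%, then 33.6%, 32.7% and 29.0%, then 15.7%, 42.0% and 20.4%, and stayed below Igkv9-124 in 8 of 9 libraries (-34.4 points, exact sign-flip permutation test, adjusted p = 0.0288; -27.1 points and adjusted p = 0.0375 without the unlisted library). Igkv9-123 was at 6.89%, 59.5% and 51.2%, then 83.7%, 47.3% and 73.3%, then 19.1%, 13.7% and 31.1%. Over the locus, the median was 58.9% for INV sites (range 0% to 98.4%) and 27.9% for DEL sites (0% to 59.2%) with DMSO in the listed libraries, and the difference was not tested. In cycling Ku70-/- cells, where fewer sites had enough junctions, it was 27.5% for 25 INV and 61.8% for 9 DEL sites. Relative to all other sites, Igkv9-129 was lower by 17.1 points (adjusted p = 0.0511) and Igkv9-124 higher by 17.3 points (adjusted p = 0.082) in exact sign-flip permutation tests, and neither passed. Without the unlisted library these were 13.3 points (adjusted p = 0.0938) and 13.8 points (adjusted p = 0.141). No member was called for hybrids between an inhibitor and DMSO in Ku70-/- cells, and neither was any other site (0.0% with either bait; 5 and 8 sites at an unadjusted p under 0.05 for L67 and L82-G17 with the CE bait, 0 and 2 with the SE bait, by limma).

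Trimming was measured as the share of the junctions within 100 bp that lay within 10 bp of the break. In arrested WT cells it was 95.3% to 100% at the 3 genes in all libraries except at Igkv9-123 with the SE bait, where replicate 3 with DMSO was at 50.7%, through the joint shown above, and replicate 2 with L67 was at 91.8%. Igkv9-129 was above all other sites by 1.64 points with the CE bait (exact sign-flip permutation test, adjusted p = 0.0281) and by 0.27 points with the SE bait (adjusted p = 0.0402), and Igkv9-124 was above them by 0.31 points with the SE bait (adjusted p = 0.0281). The SE bait call of Igkv9-129 was lost when any of 8 libraries was left out and in distinct junctions (adjusted p = 0.246). Seen from the CE bait, Igkv9-129 was above Igkv9-124 by 1.42 points (adjusted p = 0.0288) and above Igkv9-123 by 1.68 points (adjusted p = 0.0208).

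**Figure D4:**
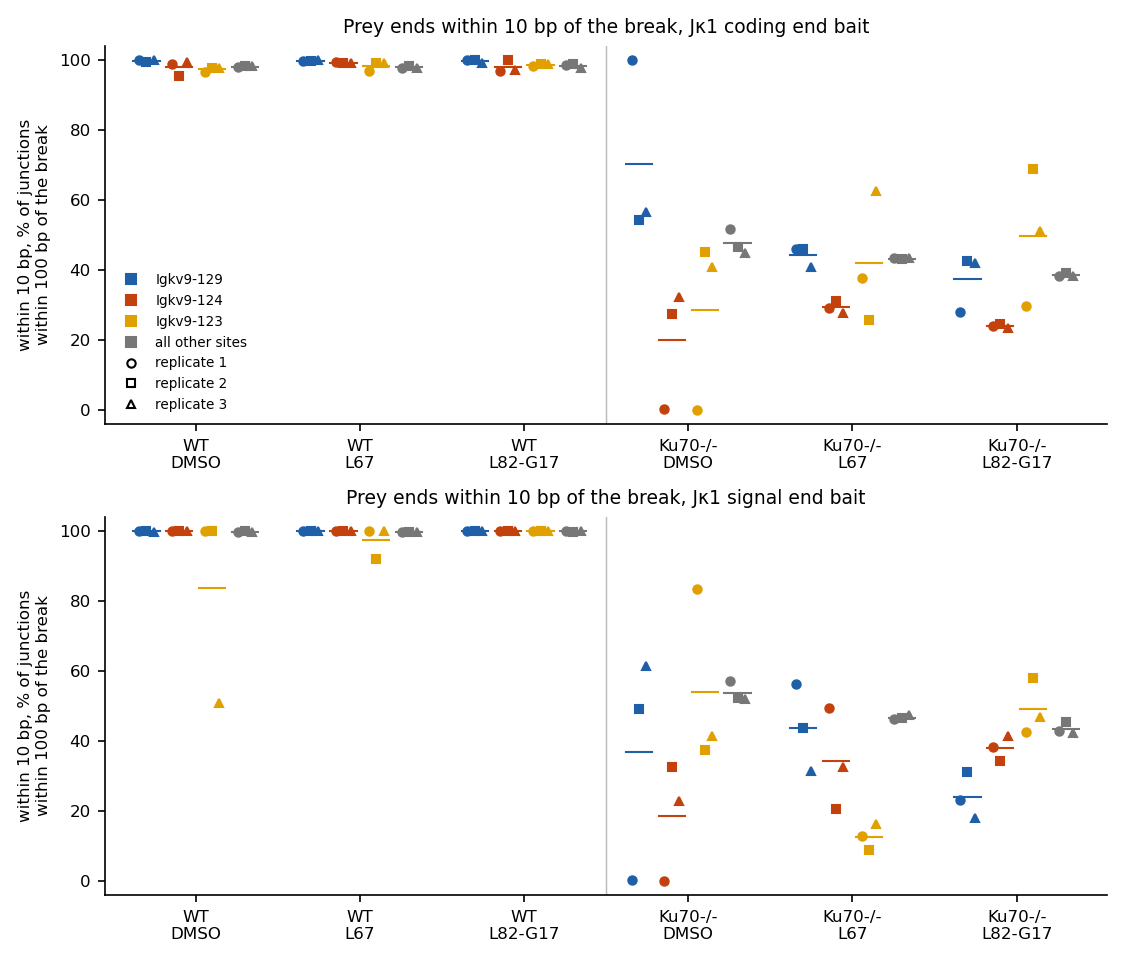
The share of junctions within 100 bp of the break that lay within 10 bp of it (%), per library of the 6 arrested groups for the 3 genes and all other sites pooled (grey), with bars for group means and separate panels for the CE and SE baits. WT libraries lie near 100%, and in Ku70-/- cells with the CE bait Igkv9-124 lies below the pooled other sites in every library.

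In Ku70-/- cells Igkv9-124 was trimmed more than the pooled other sites when joined to the Jκ1 coding end. The pool weighs each site by its junctions, and single sites were not ranked for trimming. Its share within 10 bp was 0.383%, 27.4% and 32.1% with DMSO, 29.1%, 31.0% and 27.7% with L67 and 23.98%, 24.5% and 23.3% with L82-G17, below the pooled other sites in 9 of 9 libraries. The mean was 24.4% against 43.1%, a difference of -18.7 points (exact sign-flip permutation test, p = 0.0039, adjusted p = 0.0281; -14.6 points with adjusted p = 0.0402 without the unlisted library, and -6.02 points with adjusted p = 0.0422 in distinct junctions). Igkv9-129 was at 100%, 54.2% and 56.6%, then 46.0%, 46.0% and 40.8%, then 27.9%, 42.5% and 41.8%, and exceeded Igkv9-124 in all 9 libraries by 26.3 points (adjusted p = 0.0208; 17.1 points with adjusted p = 0.025 without the unlisted library). Igkv9-123 was spread more widely, from 25.6% to 68.8% in the listed libraries, and exceeded Igkv9-124 by 15.7 points without passing (adjusted p = 0.0521; 17.7 points with adjusted p = 0.0375 without the unlisted library). The median loss at Igkv9-124 was 19 to 24 bases in the listed libraries, against 3 bases in WT cells. At all other sites pooled it was 12 to 15 bases in the same Ku70-/- libraries and 3 in WT cells, so much of this shift was shared.

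The members were lower in Ku70-/- cells with the SE bait as well, at 17.9% to 61.4% for Igkv9-129, 20.6% to 49.2% for Igkv9-124 and 8.90% to 57.8% for Igkv9-123 in the listed libraries. Igkv9-124 was below all other sites by 17.7 points and did not pass (exact sign-flip permutation test, adjusted p = 0.0511; 12.8 points with adjusted p = 0.0938 without the unlisted library). In the limma fit with the inhibitors, the log2 odds of lying within 10 bp differed from WT by -9.29 at Igkv9-129, -7.62 at Igkv9-124 and -5.94 at Igkv9-123 with the CE bait (81 of 81 sites called, 100%), and by -12.12 at Igkv9-129 and -9.70 at Igkv9-124 with the SE bait (72 of 72, 100%). A loss near the break was therefore shared by all tested sites. No site was called between an inhibitor and DMSO (0.0%; 9 and 14 sites at an unadjusted p under 0.05 for L67 and L82-G17 with the CE bait, 1 and 7 with the SE bait, by limma).

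The coding joints of WT cells fell into a few structures. For Igkv9-129 with DMSO, the most common coding joint lost 3 bases from the V end and none from Jκ1 and held 1280 junctions (30.7%). A joint with 1 base lost from V and 2 from Jκ1 held 661 (15.8%), and one with 2 and 1 bases lost and an overlap of 1 base held 321 (7.69%). The same 3 structures led at Igkv9-124, with 551 junctions (27.2%), 237 (11.7%) and 173 (8.53%). At Igkv9-123 the most common joint with DMSO had none lost from V, 1 base from Jκ1 and an overlap of 1 base, in 144 junctions (17.1%), ahead of the joint that led at the other genes (124 junctions, 14.8%). The latter led at Igkv9-123 as well with L67 (160 junctions, 25.8%) and with L82-G17 (48, 23.3%). The leading joints with DMSO are shown from the bait, with the overlap in capitals.
Igkv9-129 coding joint: ccaccgaacgtccacggagaactagcatat
Igkv9-124 coding joint: ccaccgaacgtccacggataactagcatat
Igkv9-123 coding joint: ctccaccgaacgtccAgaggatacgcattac

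Signal joints in WT cells were mostly the full-length direct joint of the heptamers, which reads the same for the 3 genes over the bases shown.
Signal joint of the 3 genes: agtactaccactgtgcacagtgatacaaat
With DMSO it made up 97.0% of the Igkv9-129 junctions with the SE bait (6196 junctions), 50.4% at Igkv9-124 (1655) and 76.4% at Igkv9-123 (404). With L67 it was 95.7%, 52.7% and 69.5%, and with L82-G17 99.2%, 66.8% and 94.5%. In distinct junctions this joint counts once for each gene and library.

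Inserted bases were frequent in WT coding joints. For the CE bait and DMSO, insertions were in 13.4%, 13.2% and 14.4% of the Igkv9-129 junctions, in 18.7%, 11.1% and 13.9% at Igkv9-124 and in 24.4%, 13.1% and 33.5% at Igkv9-123, and in at most 15.3% at all other sites pooled. Of the insertions of 1 to 6 bases, 475 of 564 (84.2%) at Igkv9-129, 207 of 282 (73.4%) at Igkv9-124 and 150 of 179 (83.8%) at Igkv9-123 could be read as palindromes of the adjoining end, the form left when a hairpin is opened off its centre. In the Igkv9-124 hybrids of WT cells with the SE bait, 91 of 136 insertions (66.9%) with DMSO and 78 of 190 (41.1%) with L67 matched this form. The match was scored against either end and not by side, it did not require a full-length end, and the share matching by chance was not computed. In the Igkv9-123 hybrids of WT cells with the SE bait and DMSO, 73 of 74 insertions (98.6%) matched. Most of these were the joint with its prey end 85 bases beyond the break, on the signal side. Signal joints, whose ends carry no hairpin, matched in 18 of 31 (58.1%) with DMSO and 0 of 8 with L67 at Igkv9-124. At Igkv9-129 they matched in 17 of 52 (32.7%) and 34 of 64 (53.1%). In Ku70-/- cells with DMSO at most 4.85% of the CE bait junctions of a member had an insertion in the listed libraries.

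**Figure D5:**
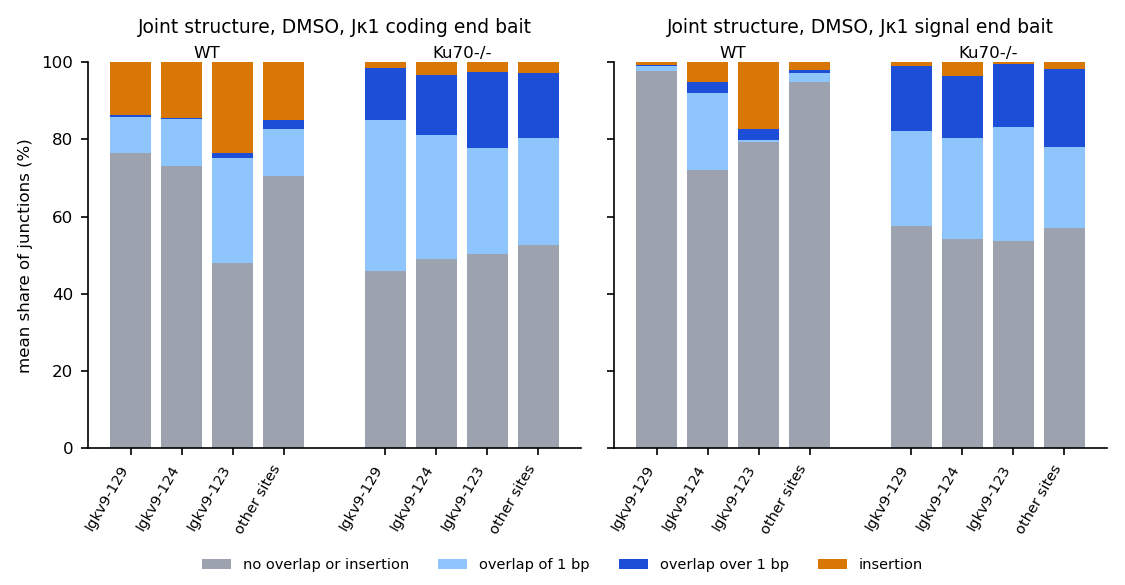
Mean share (%) of direct joints, joints with an overlap of 1 base, joints with an overlap of more than 1 base and joints with an insertion at the 3 genes and at all other sites pooled, for WT and Ku70-/- cells with DMSO and each bait (Ku70-/- without replicate 1). Insertions shrink and overlaps of more than 1 base grow from WT to Ku70-/- at all 3 genes with the CE bait.

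Overlaps of more than 1 base, a sign of joining at microhomology, were rare in WT and common in Ku70-/- cells. For the CE bait and DMSO, the mean share was 0.634% ± 0.53 (SD, n = 3) at Igkv9-129, 0.267% ± 0.46 at Igkv9-124 and 1.25% ± 0.47 at Igkv9-123 in WT cells, and 13.7% ± 1.1, 15.6% ± 5.0 and 19.5% ± 4.1 in the 2 listed Ku70-/- libraries. In the limma fit with the inhibitors the log2 odds rose by 4.81 at Igkv9-129 (adjusted p = 0.00253), 4.45 at Igkv9-124 (adjusted p = 0.00116) and 3.95 at Igkv9-123 (adjusted p = 1.13e-04), with 77 of 81 sites called (95.1%). The SE bait gave rises of 8.48 at Igkv9-129 (adjusted p = 9.90e-06) and 4.28 at Igkv9-124 (adjusted p = 0.00289), with 70 of 72 sites called (97.2%). For Igkv9-124 this rested on overlaps of more than 1 base, since with overlaps of 1 base or more the SE bait difference was 1.04 (adjusted p = 0.256). Between an inhibitor and DMSO in Ku70-/- cells, no member was called (0.0% of sites, and 1 of 72, 1.39%, with L82-G17 and the SE bait; 8 and 13 sites at an unadjusted p under 0.05 with the CE bait and 1 and 2 with the SE bait, by limma). In WT cells Igkv9-129 was below all other sites by 1.45 points with the CE bait (exact sign-flip permutation test, adjusted p = 0.0402) and by 0.59 points with the SE bait (adjusted p = 0.0281), and below Igkv9-124 by 3.27 points with the SE bait (adjusted p = 0.0469). The first of these calls was lost when any of 7 libraries was left out, and its difference was 0.19 points in the other direction in distinct junctions. The second was lost in distinct junctions (adjusted p = 0.461). The last was lost when any library was left out, with a difference of -1.51 points without WT L82-G17 replicate 1.

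With the inhibitors and the CE bait, the leading joint held 2.86% to 9.38% of the junctions of a member in Ku70-/- cells and 23.3% to 39.02% in WT cells. The leading Igkv9-124 joint with L67 and the CE bait lost 19 bases from the V end and 9 from Jκ1, had an overlap of 1 base and held 123 junctions, or 3.33% of the Igkv9-124 junctions, over 3 libraries. It is shown from the bait, with the overlap in capitals.
Igkv9-124 Ku70-/- coding joint: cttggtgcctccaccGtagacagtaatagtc
At Igkv9-129 the leading joint with L82-G17 and the CE bait lost 4 bases from each end and held 85 junctions (9.38%) over 3 libraries, and that with the SE bait held 193 of 916 (21.1%), of which 192 were in replicate 2. In the unlisted library, by contrast, 1 joint made up 2091 of the 2249 junctions at Igkv9-124 with the SE bait.

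Reading frame was scored for the coding joints of the CE bait. In WT cells with DMSO, 55.5%, 59.8% and 57.9% of the Igkv9-129 coding joints were in frame, and 41.4%, 42.3% and 40.0% of its distinct joints. At Igkv9-124 the values were 52.0%, 69.2% and 56.0%, and 34.6%, 41.7% and 38.6% of distinct joints. At Igkv9-123 they were 47.6%, 31.6% and 42.2%, and 42.1%, 41.7% and 31.3% of distinct joints. Counting distinct joints thus lowered the share in all libraries of Igkv9-129 and Igkv9-124 in this group. In Ku70-/- cells with DMSO the listed libraries had 12.8% and 31.1% in frame at Igkv9-129. They had 31.5% and 32.5% at Igkv9-124 and 24.1% and 24.3% at Igkv9-123. Each value lay below every WT library of the same gene with DMSO. Reading frame was not scored at other sites, so this separation is not given as a trait of these genes. With L67 the genotypes overlapped at Igkv9-123, where the shares were 29.1%, 7.74% and 37.6% in Ku70-/- and 35.9%, 43.4% and 58.7% in WT cells. Among distinct joints with DMSO the Ku70-/- shares were 19.2% and 30.3%, 34.9% and 38.2%, and 36.7% and 20.6%, which overlapped the WT libraries at Igkv9-124 and Igkv9-123.

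Across the 16 groups, the usage profile of Igkv9-129 resembled those of Igkv1-122 (Pearson r of mean log2 usage 0.98), Igkv1-117 (0.95) and Igkv1-110 (0.94), with Igkv9-124 at 0.60 and Igkv9-123 at 0.14. The profile of Igkv9-124 was most like those of an unannotated site (0.76), Igkv1-110 (0.74) and Igkv6-17 (0.72). Igkv9-123 was most like Igkv9-124 (0.71), followed by Igkv4-80 (0.64) and Igkv11-125 (0.63). These values are over 16 group means that share genotypes and baits and are given as a description.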

How the data were processed

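The deposited files are junction lists (tlx format, 1 read pair per line), 1 for each of the 48 libraries. Per the labels and the study's methods, the authors drew 500000 read pairs per library with Seqtk, ran TranslocWrapper.pl with Bowtie2 against mm9 and kept duplicate reads. The deposited columns used are positions, strands and read bases, other than which no value of the authors was taken.

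Break sites were positions with at least 30 junctions in the arrested WT libraries of the SE bait, which include those with DMSO. They were kept only where the signal began with CAC, and 92 of 138 were then named by an annotated gene. A Vκ gene without such WT junctions is therefore absent from all ranks and shares. Each junction was given to a site within 200 bp. Usage was junctions per 1000 junctions of the Vκ window. Usage was tested with limma on log2(usage + the value of 1 junction), over sites with a mean of at least 50 junctions in the 24 libraries of a bait. Shares were tested on log2 odds with 0.5 added to each count, over sites with at least 10 junctions in each arrested library. Each bait was fitted with all its groups and adjusted by Benjamini-Hochberg over all sites, with an adjusted p under 0.05 as a call. A prey end of the other kind than the bait was a hybrid. Within a library, genes were compared by exact two-sided sign-flip permutation tests over the 9 arrested libraries of a genotype and bait. In the comparisons with all other sites, the junctions of those sites were pooled in each library. A joint without overlapping or inserted bases was direct. Distinct junctions differ in position, strand, bait end or overlap. The tests were tried on simulated data.

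The members and lists were chosen with earlier results of these data known. The text names the 3 genes and, for each, the 3 sites with the most similar usage profile; other Igkv9 genes and sites within 200 kb are counted. Replicates were numbered in accession order and pair nothing. The study calls its repeats biological, but the labels name no separate cultures, so p-values measure the spread between these libraries, which may be technical. Reads carry no molecular identifiers, so limits and intervals (95%, exact) cover counting error only. They take each read as a separate count, also where many reads hold the same joint, and leave out the spread between libraries. Cycling libraries held 2921 to 29432 window junctions. Gene positions are from GENCODE on mm9. Software was Python 3.11.15, NumPy 2.4.6, pandas 2.3.3, SciPy 1.17.1, Biopython 1.88, Matplotlib 3.10.9, R 4.3.3 and limma 3.58.1.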

Additional observations from a re-analysis of the deposited data

How the results depend on the processing

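No paired analysis was possible because the labels carry no replicate numbers. Of 318 values for single genes under other settings, 266 kept their direction and their side of the threshold, 30 became called, 11 lost their call and 11 reversed; with 1 library left out, 674 of 756 kept both, 17 became called, 54 lost their call and 11 reversed. The rise of Igkv9-124 and Igkv9-123 in Ku70-/- cells with the CE bait (log2 2.74 and 2.03) was called under each setting tried, at 1.38 and 0.61 in distinct junctions and at 2.65 to 2.82 and 1.94 to 2.08 with 1 library left out. Where only the groups compared entered the fit, counts of called sites with the CE bait went from 23 to 37 for arrest in WT, from 47 to 5 for arrest in Ku70-/-, from 0 to 6 for L67 and from 0 to 42 for L82-G17 in WT, from 37 to 13 for genotype in cycling cells and from 17 to 71 for genotype with the inhibitors. For the SE bait they went from 37 to 16 for arrest in Ku70-/-, from 0 to 11 for L82-G17 in WT, from 1 to 0 for L82-G17 in Ku70-/-, from 24 to 14 for genotype in cycling cells and from 19 to 65 for genotype with the inhibitors. In these narrower fits the genotype difference with the inhibitors became called at Igkv9-124 and Igkv9-123 with the SE bait (limma adjusted p = 0.00109 and 0.0238) and at Igkv9-129 with the CE and SE bait (0.00144 and 0.00537). The cause was not tested.

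With each distinct junction counted once, usage counts went from 0 to 2 (CE) and from 1 to 3 (SE) for L82-G17 in Ku70-/-, from 17 to 67 (CE) and from 19 to 53 (SE) for genotype with the inhibitors and from 24 to 39 for genotype in cycling cells (SE). Of the share counts for genotype, hybrids went from 81 to 37 (CE) and 69 to 20 (SE), joints within 10 bp from 81 to 37 (CE) and 72 to 26 (SE) and microhomology from 77 to 37 (CE) and 70 to 13 (SE), where fewer sites had enough distinct junctions to be tested. For L82-G17 in Ku70-/- the count within 10 bp went from 0 to 9 (CE) and microhomology from 1 to 0 (SE), as it also did with overlaps of 1 base or more. With all junctions as the denominator, the cycling count with the SE bait went from 24 to 53. The log2 ratio of Ku70-/- to WT with DMSO went from 2.15 to 1.80 (all junctions) and 1.03 (distinct) for Igkv9-123 with the CE bait, and in distinct junctions from 1.85 to -0.45 for Igkv9-124 and from 2.56 to 1.02 for Igkv9-123 with the SE bait.

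Fitted values turned in sign in distinct junctions as follows. With the CE bait Igkv9-123 went from -0.32 to 0.24 for arrest in WT and from -0.30 to 0.30 for genotype in cycling cells, and the microhomology difference of Igkv9-129 from all other sites in WT went from -1.45 to 0.19 points. Seen from the SE bait, arrest in WT went from 4.03 to -0.087 for Igkv9-129 and from 0.78 to -1.32 for Igkv9-123, L82-G17 in Ku70-/- from 0.47 to -0.11 for Igkv9-129, genotype in cycling cells from 0.54 to -1.08 for Igkv9-123 (-0.61 with all junctions as the denominator), genotype with the inhibitors from 2.00 to -0.32 for Igkv9-124 and from 2.01 to -0.31 for Igkv9-123, and the log2 usage of Igkv9-129 over Igkv9-124 in WT from 1.81 to -0.44. Not all of these turns are in the group means. Of the 36 fitted usage differences of the members, 3 were opposite in sign to the mean usage (SE bait, Igkv9-123: arrest in WT, L82-G17 in WT and genotype in cycling cells), and so were 4 of 36 in distinct junctions (genotype in cycling cells at Igkv9-123 with the CE bait and, with the SE bait, arrest in WT and L82-G17 in Ku70-/- at Igkv9-129 and genotype with the inhibitors at Igkv9-123). The value of 1 junction added before the log is larger in libraries with fewer junctions. By construction, distinct counting takes the full-length signal joint of a WT library once.

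With 1 library left out, counts in Ku70-/- cells with the CE bait were 0 to 1 for usage with L67, 0 to 2 and 0 to 1 for hybrids with L67 and L82-G17, 0 to 1 within 10 bp with L82-G17, and 0 to 1 and 0 to 12 for microhomology with L67 and L82-G17. For the SE bait and L82-G17 they were 0 to 4 for usage and 0 to 1 for hybrids, within 10 bp and microhomology, and the cycling genotype count was 20 to 38. Of the 36 comparisons of a member with all other sites, 6 to 12 were called. Log2 differences that changed sign were those of arrest in WT at Igkv9-123 (-0.90 to 0.089 with the CE bait, -0.50 to 1.98 with the SE bait), of L82-G17 at Igkv9-129 in WT (-0.15 to 0.032) and Igkv9-124 in Ku70-/- (-0.80 to 0.071) with the CE bait, of L82-G17 at Igkv9-123 in WT (-1.65 to 0.54) and Igkv9-129 in Ku70-/- (-0.022 to 0.85) with the SE bait, and of genotype in cycling cells at Igkv9-123 (-0.88 to 0.10, CE) and, with the SE bait, Igkv9-124 (-2.09 to 1.21) and Igkv9-123 (-0.74 to 1.74), and, with DMSO, of genotype at Igkv9-129 (-0.46 to 0.85, CE). Cycling values rest on 0 to 122 junctions of a gene in a library.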
